A study of Mus musculus with 18 samples.

Results

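Casq1 and Gnb3 are genes best known outside the cerebellum, and their promoters, listed as casq1 and gnb3, are 2 of the 24 in a table of histone mark scores from mouse cerebellum. Casq1 encodes calsequestrin 1, the calcium-binding protein that fills the calcium store of fast skeletal muscle. Gnb3 encodes a beta subunit of heterotrimeric G proteins that serves in cone photoreceptors and in ON bipolar cells of the retina. The pair was picked by name for its pattern in these same scores, a gain of histone acetylation in the knockout at postnatal day 22 (P22) with almost no trimethylated lysine 4 of histone H3 (H3K4me3). Those values are therefore given as a description, without a test, and support nothing further.

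The groups were wild-type (WT) cerebellum at P22, cerebellum with a conditional knockout (cKO) of Chd4 at P22, and WT cerebellum at postnatal day 6 (P6). Chromatin was immunoprecipitated for H3K4me3 and for acetylated lysines 9 and 14 of H3 (H3K9/14ac) in all 3 groups, and for acetylated lysine 27 (H3K27ac) in the P22 groups. Each of the 8 groups of mark, genotype and age had 2 libraries, 16 in all. The sources used here do not say whether replicate libraries are from different animals, which cells lack Chd4, or what the strain is. p-values therefore measure the spread between libraries, which may be technical. In the main fits, all promoters tested for a mark share 1 standard error (SE) per contrast. It is 0.43 for H3K4me3, 0.28 for H3K9/14ac and 0.23 for H3K27ac on the log2(score + 2) scale. The spread behind intervals and p-values is thus that of the table as a whole, not of the libraries at Casq1 or Gnb3. Whole cerebella were used, so a change within cells cannot be told apart from a change in cell proportions.

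Chd4 is the ATP-driven remodeling subunit of NuRD, a complex that also holds histone deacetylases and acts at promoters and enhancers. H3K27ac is found at active promoters and active enhancers, H3K9/14ac mainly at active promoters, and H3K4me3 is concentrated at promoters, most of all at those rich in CpG dinucleotides. Acetylation and H3K4me3 usually go together at an active promoter.

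The lowest score in the table was -0.82 and the highest 67; the depth and the window behind a score are unknown from the sources used here. No ratio of scores was formed, because the zero of the score is not stated either. Besides Casq1 and Gnb3, none of the 99 genes in 9 lists of muscle, photoreceptor, cerebellar cell type, calcium store, G protein subunit and NuRD genes is in the table. The tissue label and the loss of Chd4 were therefore not checked here, and no other muscle or photoreceptor gene could be set beside the pair.

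Casq1 lies on chromosome 1, at position 174149970 as the table gives it (the submitters' processing notes name mm9), and Gnb3 on chromosome 6, at position 124790293. In the RefSeq annotation of GRCm38, the gene next to Casq1 on its upstream side is Atp1a4, which encodes a sodium pump subunit, and a long noncoding RNA, Gm17224, overlaps Casq1. Gnb3 sits between Cdca3, a cell division gene, and P3h3, a collagen prolyl hydroxylase gene. A promoter sequence was at hand for Casq1. The 250 bases before its RefSeq start (GRCm38.p6, chr1:172219896-172220145, minus strand) are shown because they hold few CpG dinucleotides, which are in capitals.

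Casq1: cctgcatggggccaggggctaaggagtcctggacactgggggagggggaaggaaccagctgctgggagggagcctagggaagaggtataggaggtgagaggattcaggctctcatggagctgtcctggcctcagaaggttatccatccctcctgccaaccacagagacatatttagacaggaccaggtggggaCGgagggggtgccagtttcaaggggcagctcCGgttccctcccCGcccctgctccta

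This stretch holds 3 CpG dinucleotides. Over the 300 bases that also include the first 50 transcribed ones, Casq1 had 4, against a median of 7 over 32851 RefSeq promoter windows of that length. Its ratio of observed to expected CpG, which corrects the number for C and G content, was 0.148, higher than in 20.6% of the windows, while its GC content of 60.3% was higher than in 71.4%. Whether this RefSeq start is the position scored in the table was not tested, since the builds differ.

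Motifs were searched on both strands of the 300 bases. The E-box, CANNTG, the motif of basic helix-loop-helix factors, matched 2 times, beginning 195 and 67 bases before the start, and 72.3% of all windows hold at least 1. The GC box, GGGCGG, matched once, 15 bases before the start, and was in 35.7% of windows. The TATA box (TATAAA, 13.6% of windows), CCAAT (37.4%), the core bound by CRX and OTX factors (TAATCC, 7.06%), the core of the cyclic AMP response element (TGACG, 20.8%) and the AP-1 motif (TGANTCA, 7.81%) had no match in these letters. Common motifs of this kind are a description of the sequence, not sites shown to be bound.

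H3K27ac at Casq1 was 1.61 and 1.72 in the WT P22 libraries and 7.59 and 12.87 in the cKO libraries. The cKO libraries were both above the WT libraries, and they lay far apart from each other. The means were 1.67 ± 0.08 and 10.2 ± 3.73 (SD, n = 2 each), a rise in score of 8.57. On the log2(score + 2) scale used for all differences here, which understates changes at low scores, that was 1.70 ± 0.23 (SE from limma). Among the 23 promoters with values in both genotypes, Casq1 stood 15th in WT and 11th in the cKO.

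Gnb3 had H3K27ac scores of 3.52 and 3.01 in WT and 10.21 and 13.02 in the cKO. The groups did not overlap, and both WT scores were higher than those of Casq1. Means were 3.27 ± 0.36 and 11.6 ± 1.99 (SD, n = 2 each), a rise of 8.35 in score and of 1.36 ± 0.23 (SE) on the log2 scale. The WT mean was close to the table's median of 3.06, so H3K27ac at Gnb3 was in the middle of these promoters in WT. In the cKO Gnb3 stood 7th of 23, above the median of 9.18.

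H3K9/14ac gave the same order of genotypes with lower scores. Casq1 had 0.78 and 0.65 in WT P22 and 3.95 and 8.30 in the cKO, with means of 0.72 ± 0.09 and 6.13 ± 3.08 (SD, n = 2 each). The groups were apart, and the log2 difference was 1.53 ± 0.28 (SE). Gnb3 had 2.12 and 3.53 in WT P22 and 4.41 and 7.78 in the cKO, with means of 2.83 ± 1.00 and 6.10 ± 2.38 (SD, n = 2 each) and a log2 difference of 0.73 ± 0.28 (SE). Its groups did not overlap either, but the higher WT library and the lower cKO library were less than 1 score unit apart. Both genes reached almost the same cKO mean, 16th and 17th of 23 promoters, from different WT levels.

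A rise in acetylation was the rule in this table, which limits what the pair shows. With limma and Benjamini-Hochberg adjusted p under 0.05, 95.2% of tested promoters had a call of higher H3K27ac in the cKO and 81.8% one of higher H3K9/14ac. With each library centred on its median over the table, 5 promoters were called higher and 6 lower for H3K27ac, and 3 and 6 for H3K9/14ac. Centring takes off the shift between library medians, so lower calls and negative differences after it need not be losses in score. That shift need not equal the median difference between genotypes. At 95.7% of promoters, in each acetylation mark, the lower cKO library exceeded the higher WT library. The median log2 difference of the promoters tested was 1.06 for H3K27ac and 0.95 for H3K9/14ac. Relative to those medians, Casq1 stood 0.65 and 0.58 above, 5th largest of 21 and 5th of 22. Gnb3 was 0.31 above for H3K27ac and -0.22 relative to the median for H3K9/14ac, where it ranked 16th. With centred libraries the H3K9/14ac difference of Gnb3 turned to -0.41, whereas that of Casq1 was 0.39 and the H3K27ac differences were 0.56 and 0.22.

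**Figure D1:**
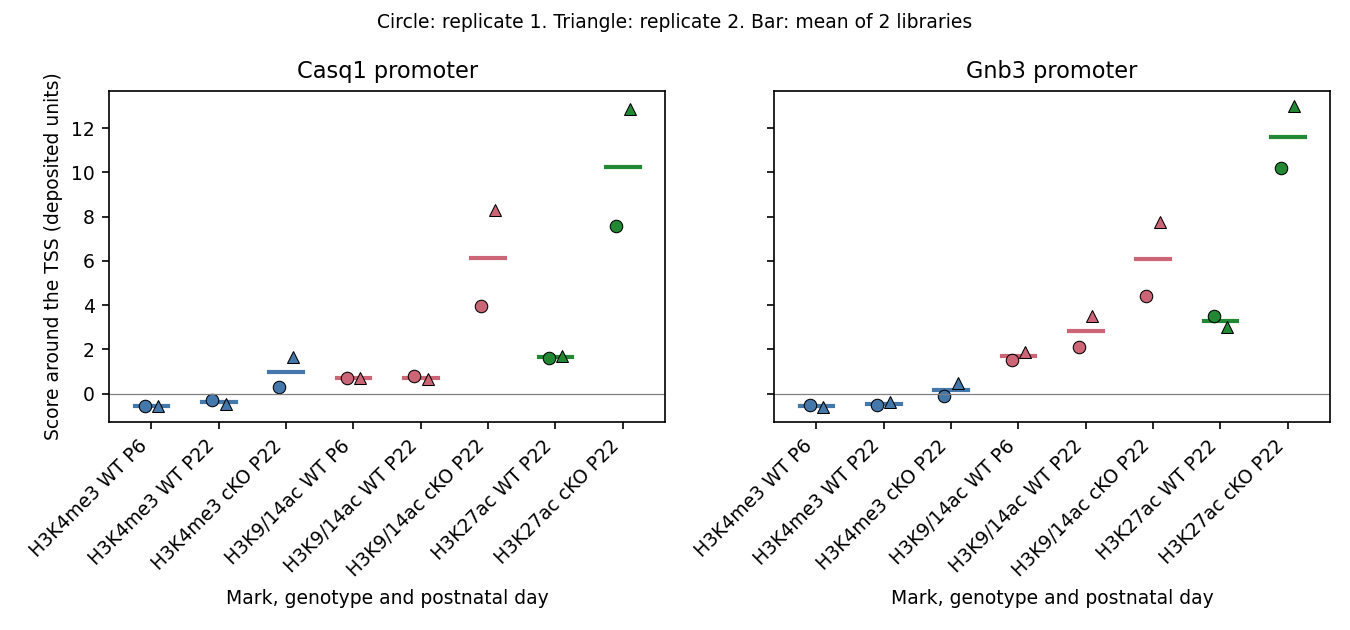
Scores around the transcription start site (TSS) of Casq1 (left) and Gnb3 (right) in all 16 libraries, by mark, genotype and age, with circles for replicate 1, triangles for replicate 2 and a bar for the mean of 2 libraries. Acetylation scores of the cKO lie between 3.95 and 13.02 and above those of WT, while H3K4me3 stays at or below 1.65.

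H3K4me3 at Casq1 was -0.30 and -0.46 in WT P22 and 0.31 and 1.65 in the cKO. The cKO libraries were again the higher ones, with no overlap. The means were -0.38 ± 0.11 and 0.98 ± 0.95 (SD, n = 2 each), and 1 library, cKO replicate 2, carried most of the difference. At Gnb3 the scores were -0.52 and -0.38 in WT P22 and -0.09 and 0.47 in the cKO, with means of -0.45 ± 0.10 and 0.19 ± 0.40 (SD, n = 2 each). Here too the groups did not overlap, although 1 cKO library stayed under 0. The same separation was seen at 69.6% of the 23 promoters.

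These H3K4me3 levels were among the lowest in the table. In the cKO, Casq1 ranked 20th and Gnb3 21st of 23 promoters, whose median was 16.3. The promoter just above Casq1 was Cpne6, a copine gene, at 1.04, and the one just below Gnb3 was Mslnl, a mesothelin-like gene, at -0.24. Casq1 and Gnb3 had fewer than 2 H3K4me3 libraries with a score of at least 1 and so were not tested; of the 18 tested, 50% were called higher in the cKO (limma, adjusted p under 0.05). That share depended on the fit: 15 were called higher with the replicate number as a block, and 2 higher and 12 lower with centred libraries. In score units H3K4me3 rose by 1.36 at Casq1 and by 0.64 at Gnb3, against a median of 6.15 over 23 promoters. On the log2(score + 2) scale the differences were 0.84 and 0.49. The median over the 18 promoters tested, a set without the pair, was 0.94, so on this scale Casq1 was near that median. With centred libraries both were below 0, at -0.90 and -1.26. Centring takes off the shift between library medians, which is not the median difference. Relative to the median difference of the promoters tested, Casq1 stood at -0.09 and Gnb3 at -0.45. The near absence of H3K4me3 is therefore a statement about its level. The log2 difference depends strongly on the pseudocount: with 1 in place of 2 it was 1.6 at Casq1 and 1.08 at Gnb3, and with 20 it was 0.10 and 0.05.

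The contrast between the marks was one of rank and level. Gnb3 was 7th for H3K27ac and 21st for H3K4me3 in the cKO, and Casq1 was 11th and 20th. The mean cKO score of H3K27ac was above that of H3K4me3 at 7 of 23 promoters, and among these Gnb3 and Casq1 had the widest gaps, 11.4 and 9.25. Hmcn2, a hemicentin gene of the extracellular matrix, came next with 6.69. Scores of different antibodies need not share a scale, so these gaps only order the promoters. Wide gaps at Casq1 and Gnb3 are also part of how the pair was picked.

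**Figure D2:**
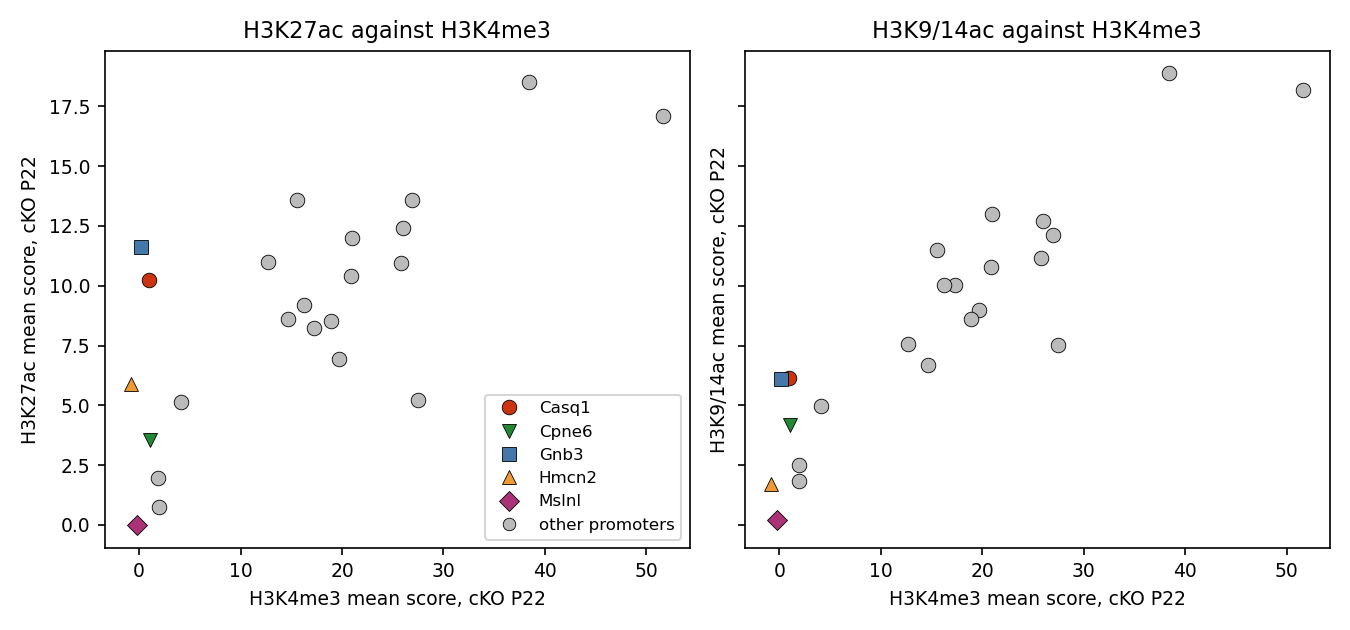
Mean cKO P22 score of H3K27ac (left) and H3K9/14ac (right) against the mean cKO P22 score of H3K4me3, 1 symbol per promoter for 23 promoters, with the 5 promoters of lowest H3K4me3 coloured or shaped as in the key. For H3K27ac, Gnb3 at 11.6 and Casq1 at 10.2 sit at the left edge, at the height of promoters with far more H3K4me3.

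Low H3K4me3 did not come with a uniform acetylation pattern. In all, 5 promoters had fewer than 2 H3K4me3 libraries at a score of 1 or more: Casq1, Gnb3, Cpne6, Hmcn2 and Mslnl. H3K27ac at Cpne6 went from 0.48 ± 0.05 in WT to 3.54 ± 0.69 in the cKO (SD, n = 2 each), and H3K9/14ac from 1.37 ± 0.50 to 4.19 ± 1.22. Hmcn2 had more H3K27ac in WT than Casq1 or Gnb3, 3.96 ± 0.64, and a cKO mean of 5.91 ± 0.69 (SD, n = 2 each), with H3K9/14ac at 1.26 and 1.73. Mslnl was near 0 in every group, with -0.31 and -0.02 for H3K27ac. Casq1 and Gnb3 thus had the highest cKO acetylation of the 5 in both marks, which is part of how they were picked.

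CpG content could be read at 3 of these 5 promoters, and it varied as well. Mslnl had an observed to expected CpG ratio of 0.080 and Casq1 0.148, whereas Hmcn2 had 0.696, higher than 70.6% of all windows. Nhlh1, with a ratio of 0.084, had a cKO H3K4me3 mean of 26.0. A low ratio was thus seen both with low and with high H3K4me3, and 14 of the 24 genes had a sequence at hand. The ratio covers 300 bases at a RefSeq start, while the window behind a score is unknown and may reach beyond them.

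**Figure D3:**
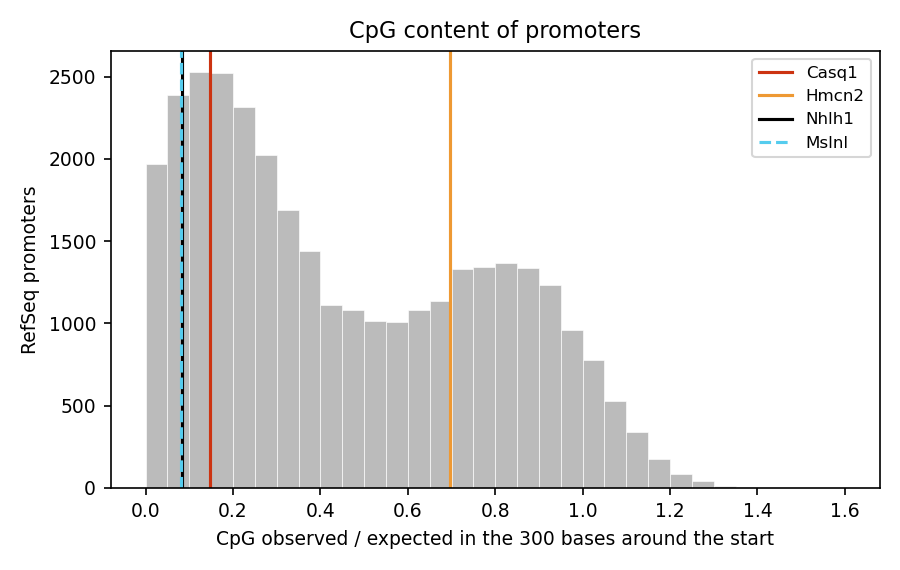
Number of RefSeq promoters (vertical axis) by the ratio of observed to expected CpG in the 300 bases around the start (horizontal axis, bins of 0.05), with lines for Casq1, Hmcn2, Nhlh1 and Mslnl. Casq1 at 0.148 falls in the CpG-poor mode with Nhlh1 and Mslnl, and Hmcn2 at 0.696 in the CpG-rich one.

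The comparison that chose the pair did not name the P6 libraries, although it used the WT P22 libraries set against them. The scores at P6 were in view when the pair was picked, and the low H3K4me3 may have been read there too. The P6 values are therefore not independent of the choice. H3K9/14ac at Casq1 was 0.70 in both P6 libraries, which differed from each other at other promoters, and 0.78 and 0.65 in WT P22. The P22 scores lie on either side of the P6 value. The log2 difference of WT P22 from P6 was 0.01 ± 0.28 (SE), with a 95% interval from -0.55 to 0.57 and limma adjusted p = 0.992. All 4 of these WT scores are under 1, so Casq1 entered this test only through its cKO libraries, and the comparison is one of 2 low levels. At Gnb3 the scores were 1.51 and 1.90 at P6 and 2.12 and 3.53 at P22, with means of 1.71 ± 0.28 and 2.83 ± 1.00 (SD, n = 2 each). The P22 libraries were both above the P6 libraries, as at 25% of the 24 promoters. The log2 difference of 0.37 ± 0.28 (SE) had an interval from -0.19 to 0.93 and limma adjusted p = 0.499, so no change with age was shown at either gene. Of all promoters tested for age in H3K9/14ac, 13% were called in either direction, 3 of 23; with the replicate number as a block 7 were called, and with centred libraries 8.

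H3K4me3 at P6 was -0.54 in both libraries at Casq1, and -0.50 and -0.58 at Gnb3. The WT P22 scores at Casq1 were both higher than at P6, by a mean of 0.16 in score, and those at Gnb3 overlapped P6. WT P22 lay above P6 in both libraries at 29.2% of promoters. Neither gene passed the filter for H3K4me3. Without the filter the log2 differences from P6 to P22 were 0.15 and 0.09, with limma adjusted p = 0.913 for each. These p-values compare scores below 0 at genes picked for low H3K4me3, so they say little about a change with age. In these libraries H3K4me3 was thus below 0 in WT at both ages, at both genes.

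The cKO scores could be set beside P6 as values only, since the cKO libraries chose the pair. In H3K9/14ac both cKO libraries at each gene were above both P6 libraries, as at 87% of the 23 promoters. The log2 difference of the cKO from P6 was 1.54 at Casq1, the 3rd largest of 23, and 1.10 at Gnb3, the 10th, against a median of 0.96. In H3K4me3 both genes were likewise above P6 in both cKO libraries, as were 65.2% of promoters, with log2 differences of 0.99 and 0.57. H3K9/14ac in the cKO was thus higher at both genes than at either age of WT; H3K27ac was not measured at P6.

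Nhlh1, a transcription factor gene of newly postmitotic neurons, makes a local comparison for Casq1. By the table's own positions the 2 start sites are 162276 bp apart on chromosome 1, the nearest of the 9 pairs of table promoters that share a chromosome, and the next nearest pair is 17377238 bp apart. H3K27ac in the cKO was alike in size, 12.4 ± 1.95 at Nhlh1 and 10.2 ± 3.73 at Casq1 (SD, n = 2 each), from 0.27 and 1.67 in WT. H3K4me3 in the cKO was 26.0 ± 8.99 at Nhlh1 against 0.98 ± 0.95 at Casq1 (SD, n = 2 each). At P6, H3K4me3 was 43.5 ± 9.26 at Nhlh1 and -0.54 at Casq1, and H3K9/14ac was 11.3 ± 1.01 and 0.70. For H3K9/14ac, Nhlh1 had a cKO mean of 12.7 ± 2.28, with a log2 difference of 0.14 from P6, the 22nd of 23. At both neighbours the cKO libraries were above the WT libraries in each acetylation mark, as at 95.7% of promoters. Their H3K4me3 and P6 levels differed. Nhlh1 had the largest genotype difference of the promoters tested in each mark and was named after its values were seen.

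**Figure D4:**
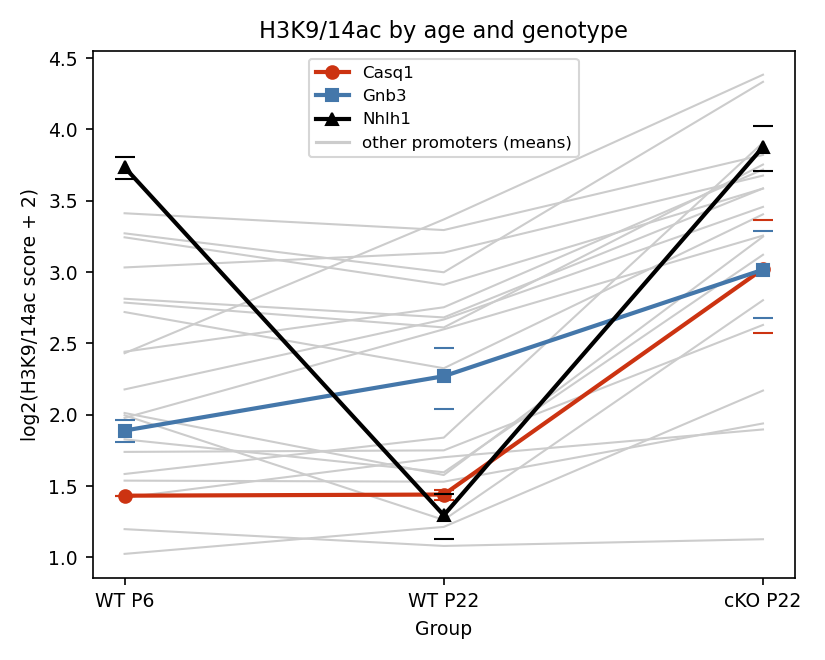
H3K9/14ac as log2(score + 2) in WT P6, WT P22 and cKO P22, with group means joined for Casq1, Gnb3 and Nhlh1, dashes for their single libraries, and grey lines for the means of the other 20 promoters; the lines join groups of different mice and are no time course. Casq1 and Gnb3 are low at both WT ages and higher in the cKO, while Nhlh1 is high at P6, low in WT P22 and high in the cKO.

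Over all 16 libraries, the promoter most like Casq1 was Gnb3, and the reverse held, with a Pearson r of 0.93 on log2(score + 2) among 22 other promoters. Next for Casq1 came Cpne6 (r of 0.90) and Cplx3, a complexin gene (r of 0.79). For Gnb3, Hmcn2 followed with an r of 0.89 and Cpne6 with 0.88. The 16 points mix marks, ages and genotypes and share library shifts, so these coefficients describe likeness across this table, and no p is given. Casq1 and Gnb3 were picked for a shared pattern in these same scores, so their likeness to each other is part of that choice.

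Replicate 2 of the cKO libraries had the higher score at both genes in all 3 marks. The step from replicate 1 to 2, on the log2 scale, was 0.66, 0.79 and 0.63 at Casq1 and 0.37, 0.61 and 0.30 at Gnb3 for H3K4me3, H3K9/14ac and H3K27ac. The median step over the table was 0.68, 0.48 and 0.28, so the shift was common to many promoters, and its part in the values above was not tested. Without cKO replicate 2 the H3K27ac difference was 1.39 at Casq1 and 1.22 at Gnb3, and that of H3K9/14ac 1.13 and 0.43. For H3K4me3 it was 0.51 and 0.30. With 2 libraries a group, an exact permutation test cannot give a two-sided p under 0.33.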

How the data were processed

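The deposited gene table gives a score with 2 decimals for 24 promoters in 16 libraries. Of the authors' steps from reads to scores, the sources used here give only BWA and mm9, in the submitters' processing notes. The 2 inputs and the authors' mean curves, which hold no single gene, were not used. The design had named a limma test for values that are not counts, and that was used. For each mark, all libraries entered 1 limma fit (limma 3.58.1, R 4.3.3) of log2(score + 2) without covariates, keeping promoters that reached a score of 1 in 2 or more of its libraries. p-values were Benjamini-Hochberg adjusted over all promoters tested, with a threshold of 0.05. The fit was tested on simulated data. Casq1 and Gnb3, the lists and the settings were chosen with earlier results of these data known. Other promoters named were the 3 most correlated with each gene, those under the H3K4me3 filter and rank neighbours by cKO H3K4me3; Nhlh1 was named after its values were seen. Symbols matched the reference for 23 genes; the table's numeric identifiers agreed for 0 and were not used. Alternatives were libraries centred on their medians, a replicate block, no filter, a pseudocount of 1 or 20, and each library left out. Other values were computed with pandas 2.3.3 and numpy 2.4.6 under Python 3.11.15, and plotted with matplotlib 3.10.9. Promoter sequences are from RefSeq (GRCm38.p6).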

Additional observations from a re-analysis of the deposited data

How the results depend on the processing

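Of 92 alternative values of the log2 differences at Casq1 and Gnb3, 87 kept their sign and 5 changed it, 4 of them with centred libraries and 1 without a single WT P22 library. With a pseudocount of 20, the genotype differences at Casq1 were 0.10 (H3K4me3), 0.33 (H3K9/14ac) and 0.48 (H3K27ac), and at Gnb3 0.046, 0.19 and 0.44. A pseudocount of 1 gave 1.6, 1.99 and 2.03 at Casq1 and 1.08 for H3K4me3 at Gnb3. Centred libraries gave -0.90, 0.39 and 0.56 at Casq1 and -1.26, -0.41 and 0.22 at Gnb3, and turned the age difference of H3K9/14ac at Casq1 to -0.21 (limma adjusted p = 0.387). Leaving out 1 library at a time gave genotype differences of 0.51 to 1.17, 1.13 to 1.92 and 1.39 to 2.02 at Casq1, and of 0.30 to 0.67, 0.43 to 1.03 and 1.22 to 1.51 at Gnb3. The age differences of H3K9/14ac then ran from -0.027 (without WT P22 replicate 1) to 0.042 at Casq1 and from 0.16 to 0.58 at Gnb3, and those of H3K4me3 from 0.08 to 0.22 and from 0.02 to 0.15. Under the alternatives that kept all libraries, the age p-values for H3K9/14ac stayed above the threshold. They were 0.387 to 0.998 for Casq1 and 0.11 to 0.853 for Gnb3 (limma adjusted). At Casq1 all WT scores of this mark are under 1, so a high p there only compares low levels and is no sign of robustness.

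Counts of calls over the table moved more. With the replicate number as a block, H3K4me3 had 15 genotype calls in place of 9 and 10 age calls in place of 5, H3K9/14ac had 21 genotype calls in place of 18 and 7 age calls in place of 3, and H3K27ac had 18 genotype calls in place of 20; the differences at Casq1 and Gnb3 were unchanged by construction. The labels share only a number between groups; same-numbered libraries deviated with r from 0.22 to 0.74 in H3K4me3 and H3K9/14ac and -0.29 in H3K27ac, where a block with crossed numbers, added after seeing the data, gave 21 calls. Centring gave 14 (2 higher, 12 lower), 9 (3 and 6) and 11 (5 and 6) genotype calls for H3K4me3, H3K9/14ac and H3K27ac in place of 9, 18 and 20, and 13 and 8 age calls. Centring takes off the shift between library medians, so lower calls after it need not be losses in score. A pseudocount of 20 left 5 genotype and 2 age calls for H3K4me3. Without single libraries, genotype calls were 5 to 12, 10 to 20 and 15 to 20, lowest without WT P22 replicate 1 for H3K4me3 (5) and H3K9/14ac (10), and age calls 3 to 5 (3 without WT P22 replicate 2 of H3K4me3) and 2 to 4. Depth is unknown, so no counting error could be given. The causes of these moves were not tested.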
